A study of Mus musculus with 4 samples.

Results

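The tricarboxylic acid (TCA) cycle and the reactions that feed pyruvate into it were followed through 34 enzyme genes, chosen by symbol from a fixed list of cycle enzymes, pyruvate dehydrogenase subunits and regulators, pyruvate carriers, malic enzymes and aminotransferases. All 34 were found among the 24940 genes of the deposited table, and all 34 passed the filter on low values that left 13531 genes for testing. Total RNA was sequenced from pancreatic islets, the clusters of endocrine cells that make insulin and glucagon, of male mice aged 3 to 4 months on a low-fat chow diet. There were 2 libraries from non-transgenic controls (replicates 1 and 2) and 2 from Tafazzin-knockdown mice (replicates 3 and 4), each made from about 300 islets drawn from 2 to 3 mice. The knockdown construct and its promoter are not given in the sources used here. Because the controls carried no transgene, its own effect and that of Tafazzin depletion cannot be told apart. Values below are given in the order control 1, control 2, knockdown 3, knockdown 4.

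The TCA cycle runs in the mitochondrial matrix, where it oxidizes acetyl-CoA and delivers electrons to the respiratory chain. Pyruvate enters the matrix through the mitochondrial pyruvate carrier and is then turned either into acetyl-CoA by the pyruvate dehydrogenase complex or into oxaloacetate by pyruvate carboxylase. Beta cells are known for a strong flux through pyruvate carboxylase and for very little lactate dehydrogenase, so that glucose carbon goes mainly to mitochondria, and this metabolism couples glucose to insulin release. Tafazzin remodels cardiolipin, the lipid of the inner mitochondrial membrane that surrounds the respiratory complexes and carriers. The comparison asks whether the RNA of these matrix enzymes differs in islets with less Tafazzin.

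In the knockdown islets 0 of the 34 enzyme genes passed the test in either direction. Their median log2 fold change was -0.0066, beside -0.0046 over all tested genes, and single genes ranged from -0.67 for Pdk2, a pyruvate dehydrogenase kinase, to 0.50 for Me3, a mitochondrial malic enzyme. The 2 genes with an unadjusted p under 0.05 were both lower in the knockdown: Fh1, the fumarase of the cycle, and Pdk2. Summed over the 34 genes, the level was 1458, 1471, 1378 and 1489 units, so on this scale the controls lay between the knockdown libraries. A unit is 1 read per 10000000 reads of a library, after scaling the libraries to each other by the median ratio of their genes.

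The test was limma on log2(value + 1) with Benjamini-Hochberg adjustment over all 13531 genes at 0.05. It called 1.12% of all tested genes higher and 0.155% lower, 151 and 21 genes. At those shares fewer than 1 of 34 genes would be called, so a count of 0 does not set the enzymes apart. An unadjusted p under 0.05 was reached by 2 of the 34 genes and by 10.3% of all tested genes. The edgeR quasi-likelihood test on recovered reads, which called 1.43% of all genes, and DESeq2 also called 0 of the 34, with 2 and 1 of them at an unadjusted p under 0.05. On the deposited values without rescaling, limma called 2.53% of all genes and 0 of the 34. Of the main calls 87.8% were higher, against 98.3% on the deposited values, whose median log2 fold change over all genes was 0.17.

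Tafazzin itself was checked first. Its gene, Taz (NM_181516; mm10 chromosome X, 74282718 to 74290151, plus strand), stood at 22.3, 18.2, 12.9 and 12.03 units, from 159, 125, 106 and 100 reads. Each knockdown library was lower than either control, as labelled, at a ratio of means of 0.615. By limma the log2 fold change of -0.65 ± 0.20 SE missed the threshold (adjusted p = 0.136). Reads were apparently counted over whole gene bodies, introns included, and without regard to strand, so these values are not mature mRNA alone.

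The libraries held 68823160 to 81073502 reads. Only 5.33% to 6.68% were counted in rows other than 13 very abundant ones led by the ribosomal RNA precursor. Ins1 and Ins2 were kept out of the 13, and reads counted in no row are in neither part. The share in the other rows was lowest in control 2, which is why the libraries were rescaled. Each enzyme gene therefore rests on few reads, from 12 for Me3 in control 2 to 1542 for Ogdh in knockdown 4. Marker genes of the islet cell types were present in all libraries, led by Ins2 at 44812 to 56310 units. The 8 stellate and fibroblast markers were together higher in the knockdown, at 97.7, 126.9, 289.6 and 234.0 units, with 6 of 8 called higher. The 7 endothelial markers summed to 157.2, 162.2, 294.5 and 228.1 units, with 3 called higher. The 10 beta cell markers summed to 95745, 92666, 77761 and 85906 units, mostly from Ins2, Ins1 and Iapp. Of the 10, 1, the insulin gene activator Mafa, was called lower (limma adjusted p = 0.0198). All 10 had a negative log2 fold change, and 6 had an unadjusted limma p under 0.05. In 8 of the 10 both knockdown libraries lay below both controls, as in 20% of all tested genes. In such bulk RNA, fewer cells of a type and less RNA per cell cannot be told apart, and the part of cell makeup in the enzyme values was not tested.

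**Figure D1:**
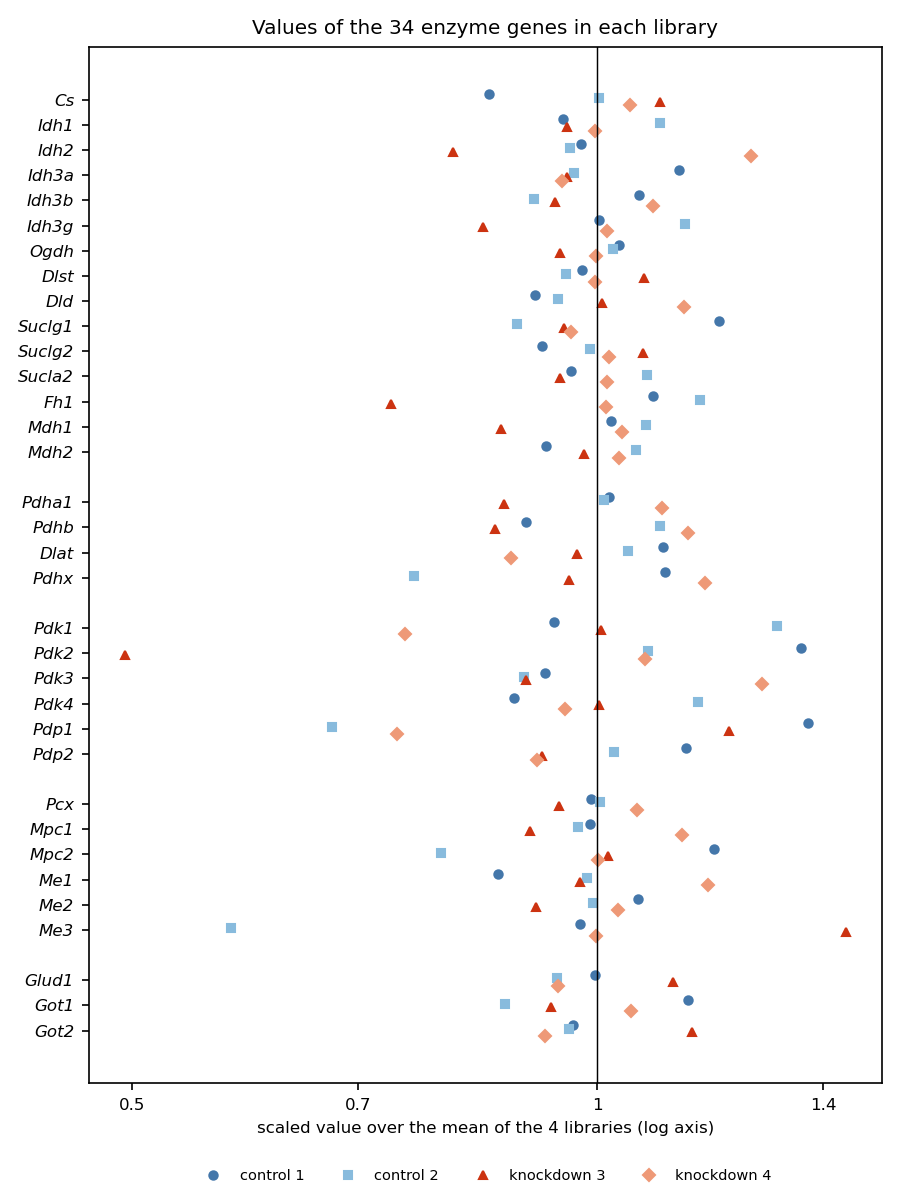
Each row is an enzyme gene, grouped by role, and each point is the scaled value of a library over the mean of all 4 libraries, on a log axis. Circles and squares are the controls, triangles and diamonds the knockdown libraries, and in 23 of the 34 rows the groups overlap, with Pdk2 in knockdown 3 the point farthest to the left.

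Groups overlapped in 23 of the 34 genes. Both knockdown libraries lay above both controls in 5 genes and below both in 6, together 32.4% of the enzyme genes, against 40.4% of all tested genes (20.4% above and 20% below). The median absolute difference between the 2 controls was 0.17 on the log2 scale for the enzyme genes, and between the 2 knockdown libraries 0.19. The median absolute log2 fold change between the groups was 0.10. A difference between means of 2 libraries varies less than a gap between single libraries. That it was the smaller value therefore shows nothing about the groups. In 5 of the 34 genes (14.7%) the group difference was larger than both replicate gaps, as in 27.3% of all tested genes. Over all tested genes the same medians were 0.21, 0.20 and 0.17.

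The precision allows limits to be put on most of the genes. For 32 of the 34 the 95% interval of the log2 fold change lay within -1 to 1, and for 21 within -0.5 to 0.5. The exceptions to the wider limit were Pdk2, whose interval ran from -1.20 to -0.13, and Me3, from -0.24 to 1.23. Given each gene's standard error, a log2 fold change of 0.44 for Ogdh, the most precisely measured enzyme gene, and of 1.41 for Me3, the least, would have been needed for a call. The median over the 34 was 0.65. These are cuts on the estimated difference at its standard error, and not limits on the true difference that 2 libraries a group can detect. The standard errors and intervals lean on the spread of all tested genes, from which 21.4 of the 23.43 degrees of freedom come.

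**Figure D2:**
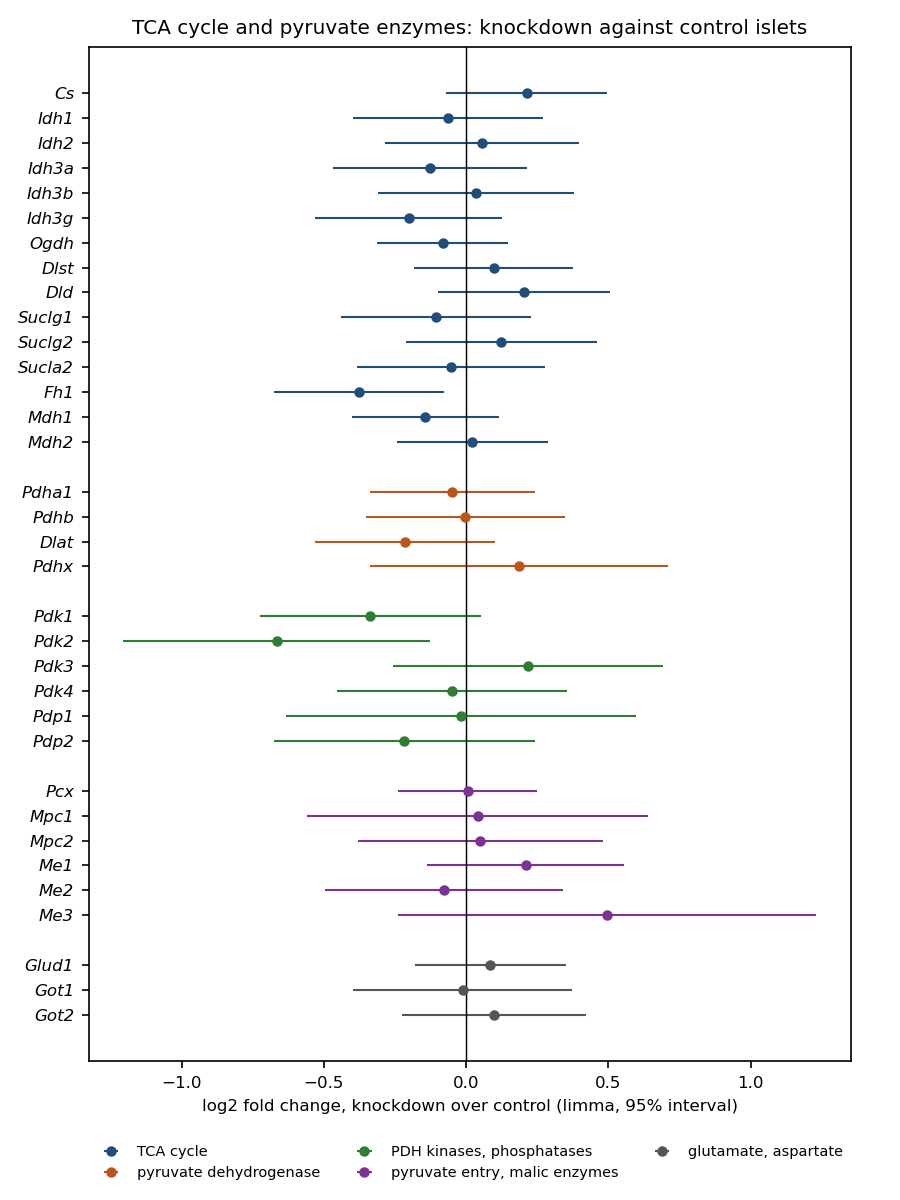
Points are log2 fold changes of the knockdown over the control from limma, bars their 95% intervals, colours the role of the gene. The intervals of Fh1 and Pdk2 exclude 0 before adjustment over all genes, and those of the other 32 genes include it.

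The 15 genes of the cycle itself included none that was called, with a median log2 fold change of -0.05. Citrate synthase, encoded by Cs, condenses acetyl-CoA with oxaloacetate and opens the cycle. It stood at 51.5, 60.7, 66.4 and 63.5 units, both knockdown libraries above both controls, with a log2 fold change of 0.21 ± 0.14 SE that did not pass the test (limma adjusted p = 0.652). Of the genes of the NAD-dependent isocitrate dehydrogenase, the catalytic subunit gene Idh3a lay at 31.5, 26.9, 26.7 and 26.5 units. The regulatory subunit genes lay at 30.0, 25.6, 26.4 and 30.6 units for Idh3b and 34.6, 39.3, 29.1 and 35.0 for Idh3g. The log2 fold changes of the 3 subunit genes were -0.13, 0.04 and -0.20, that of Idh3b being -0.07 without control 2, and in Idh3a the higher knockdown library lay just below the lower control.

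The NADP-dependent isocitrate dehydrogenases act in the cytosol (Idh1) and in mitochondria (Idh2). Idh1 stood at 28.0, 32.3, 28.1 and 29.4 units. Idh2 stood at 51.8, 50.9, 42.8 and 66.7 units, from 370, 350, 353 and 554 reads. The controls differed in Idh2 by 0.02 on the log2 scale and the knockdown libraries by 0.63, so its log2 fold change of 0.06 averages a low and a high library. The log2 fold change of Idh2 was -0.25 without knockdown 4 and 0.37 without knockdown 3, and was called in neither case.

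The 2-oxoglutarate dehydrogenase complex turns 2-oxoglutarate into succinyl-CoA. Ogdh, its first component, was counted with the most reads of the 34 genes, at 191.9, 190.4, 175.8 and 185.5 units. The knockdown libraries lay below both controls after median-ratio scaling, but the log2 fold change of -0.08 ± 0.11 SE did not pass the test (limma adjusted p = 0.879) and was 0.02 after quantile normalization. Its 95% interval reached from -0.31 to 0.15. Dlst, the second component, stood at 55.0, 53.7, 60.4 and 56.1 units. Dld, the third component, which the pyruvate dehydrogenase complex shares, stood at 38.9, 40.3, 43.0 and 48.6 units. In Dlst and Dld both knockdown libraries were above both controls, with log2 fold changes of 0.10 and 0.20 (limma adjusted p = 0.883 and 0.693).

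Succinyl-CoA ligase pairs a common alpha subunit, from Suclg1, with a beta subunit that sets the use of GTP (Suclg2) or ATP (Sucla2). Suclg1 stood at 43.7, 32.3, 34.7 and 35.0 units, with the controls at the top and at the bottom of the row. Suclg2 stood at 25.5, 27.4, 29.6 and 28.2 units and Sucla2 at 29.0, 32.5, 28.5 and 30.6. Of the reads in both beta subunit genes, Suclg2 took 46.8%, 45.7%, 50.9% and 47.95%, a share that needs no scaling between libraries. The share was higher in each knockdown library than in either control, by little in knockdown 4, and no test of it was made. It rests on 182 to 244 reads of Suclg2 and 207 to 254 reads of Sucla2 a library.

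Fumarase, encoded by Fh1, hydrates fumarate to malate and was the cycle gene with the lowest log2 fold change. Fh1 (NM_010209; mm10 chromosome 1, 175601378 to 175625635, minus strand) stood at 79.5, 85.3, 53.8 and 74.1 units, from 568, 586, 444 and 616 reads. Both knockdown libraries were below both controls, and knockdown 3 was far lower than knockdown 4. Control libraries averaged 82.4 ± 4.10 units and knockdown libraries 64.0 ± 14.3 units (SD, n = 2 per group). Its log2 fold change was -0.38 ± 0.14 SE, with an unadjusted limma p of 0.0155 and an adjusted p of 0.303. Without knockdown 4 the gene was called lower (log2 fold change -0.60, limma adjusted p = 0.0190), and without knockdown 3 the log2 fold change was -0.14 and not called.

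Malate dehydrogenase closes the cycle in the matrix (Mdh2) and serves the malate-aspartate shuttle in the cytosol (Mdh1). Mdh2 stood at 72.1, 82.4, 76.3 and 80.4 units. Mdh1 stood at 113.7, 119.7, 96.4 and 115.5 units, with knockdown 3 lowest and knockdown 4 inside the range of the controls. Neither was called (limma adjusted p = 0.980 and 0.767). Of the reads in Fh1, Mdh2 and Cs together, Fh1 took 39.1%, 37.3%, 27.4% and 34%. The share of Cs was 25.4%, 26.6%, 33.8% and 29.1%. The shares need no scaling between libraries and did not overlap between the groups, and no test of them was made. They have 1 denominator, so that a lower Fh1 raises the share of Cs. Fh1 and Cs had the lowest and the highest log2 fold change of the 15 cycle genes. Shares built from them therefore tend to separate and give no further support. Mdh2 took 35.5%, 36.1%, 38.8% and 36.9% of the reads in Fh1, Mdh2 and Cs, also without overlap. The share of Mdh1 in the reads of Mdh1 and Mdh2 was 61.2%, 59.2%, 55.8% and 58.97%, separated by little in knockdown 4. Shares that overlapped between the groups were those of Idh1 in the reads of Idh1 and Idh2, at 35.1%, 38.8%, 39.7% and 30.6%. So did the share of Got1 in the reads of Got1 and Got2, at 40.7%, 34.4%, 31.9% and 39.7%.

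Promoter sequence is shown for the 2 genes with an unadjusted p under 0.05. The 250 bases before the start site come from RefSeq on GRCm38.p6, the assembly that mm10 names, and lie at chr1:175625636-175625885 for Fh1 and at chr11:95041372-95041621 for Pdk2, both on the minus strand. RefSeq holds 2 starts for Pdk2, and the one at the deposited start of the gene was used. Both windows are printed 5′ to 3′ in lower case. Capitals mark the letters of the GC box, GGGCGG, and of the CCAAT box, CCAAT, on either strand, so that CCGCCC and ATTGG are the reverse complements.
Fh1: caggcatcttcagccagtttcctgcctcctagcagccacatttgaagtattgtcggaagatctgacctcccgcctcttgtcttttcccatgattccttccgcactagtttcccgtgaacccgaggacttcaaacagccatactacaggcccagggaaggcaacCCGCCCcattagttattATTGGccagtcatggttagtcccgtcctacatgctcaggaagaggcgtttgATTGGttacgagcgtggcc
Pdk2: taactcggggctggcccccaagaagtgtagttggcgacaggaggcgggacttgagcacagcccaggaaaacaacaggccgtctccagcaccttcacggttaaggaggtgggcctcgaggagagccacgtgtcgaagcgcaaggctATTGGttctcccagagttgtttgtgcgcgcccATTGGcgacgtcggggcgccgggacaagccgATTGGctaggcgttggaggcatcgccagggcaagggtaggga

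The window of Fh1 held 1 GC box and 2 CCAAT boxes, and that of Pdk2 held 3 CCAAT boxes and 0 GC boxes. Of the enzyme genes 31 matched a RefSeq start, 20 of them (64.5%) with a GC box and 18 (58.1%) with a CCAAT box in this window. Over 18096 genes of the table with a matched start the shares were 42.8% and 36.1%. Those genes include ones below the filter on low values, which all the enzyme genes passed, so the shares are not matched for expression. A TATA box, TATAAA, was found in 1 enzyme gene, Got2, which is 3.23% against 11.9% of all genes. The letters of the motif of estrogen-related receptors, TCAAGGTCA, were in 0 of 31 windows (0.321% of all genes). All motifs were searched on both strands, and none of the 4 contains another. Such a match is a run of letters and no measured binding site.

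None of the 4 pyruvate dehydrogenase genes was called. The complex oxidizes pyruvate to acetyl-CoA with an E1 component of alpha (Pdha1) and beta (Pdhb) subunits, an E2 core (Dlat) and an E3-binding protein (Pdhx). Pdha1 stood at 63.3, 62.7, 54.1 and 68.5 units, and Pdhb at 29.7, 36.2, 28.4 and 37.8. In both E1 genes knockdown 3 was the lowest library and knockdown 4 the highest, so the controls lay between them. Pdha1 overlaps the end of Map3k15 on the other strand by 1133 bases, and the whole row of that gene held 1.70 times as many units. Reads in the overlap may not have been told apart.

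Dlat stood at 38.6, 36.7, 33.95 and 30.8 units. Both knockdown libraries were below both controls, by -0.21 ± 0.15 SE on the log2 scale (limma adjusted p = 0.693). Pdhx, at 9.52, 6.55, 8.25 and 10.1 units, rested on 45 to 84 reads, and its groups overlapped. The summed level of the 4 genes was 141.1, 142.2, 124.7 and 147.1 units.

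The kinases Pdk1 to Pdk4 phosphorylate E1 and switch the complex off, and the phosphatases Pdp1 and Pdp2 switch it on again. None of these 6 regulators was called, and their summed level was 91.3, 95.2, 79.9 and 80.5 units, lower in both knockdown libraries. Of the reads in all 34 genes this was 6.26%, 6.47%, 5.80% and 5.41%. No test of this sum was made. The sum follows mainly Pdk1 and Pdk2, whose group means went from 29.5 to 23.1 and from 16.1 to 10.4 units. Pdk2 was lowest in knockdown 3, at 6.55 units, and Pdk1 in knockdown 4, at 19.7 units. Only 1 regulator, Pdk3, had a positive log2 fold change, 0.22. Groups overlapped in 4 of the 6 genes, Pdk1 among them. Of all tested genes 40.4% showed no overlap, so separated groups are common.

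Pdk2 (NM_133667; mm10 chromosome 11, 95026258 to 95041371, minus strand) had the lowest log2 fold change of the 34 genes. It stood at 17.9, 14.3, 6.55 and 14.2 units, from 128, 98, 54 and 118 reads. Knockdown 3 was far below the others, while knockdown 4 was below control 2 by less than the counting error. Its exact Poisson 95% interval in knockdown 3, which covers counting error only, was 4.92 to 8.54 units, against 11.8 to 17.0 in knockdown 4. The log2 fold change was -0.67 ± 0.26 SE, with an unadjusted limma p of 0.0176 and an adjusted p of 0.320. Without knockdown 4 it was -1.17 and called (limma adjusted p = 0.00449), and without knockdown 3 it was -0.16 and not called.

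Pdk1, a kinase known as a target of hypoxia signalling, was counted with the most reads of the regulators, at 24.6, 34.4, 26.4 and 19.7 units. Its groups overlapped, and the log2 fold change was -0.34 ± 0.19 SE with a limma adjusted p of 0.580. Pdk3 stood at 10.4, 10.0, 10.1 and 14.3 units with a log2 fold change of 0.22 that was -0.01 without knockdown 4. Pdk4, the kinase gene that fasting induces in many tissues, stood at 15.4, 20.2, 17.5 and 16.6 units. Of the reads in the 4 kinase genes, Pdk2 took 26.2%, 18.1%, 10.8% and 21.9%, and Pdk1 took 36.1%, 43.5%, 43.7% and 30.4%. In both genes the share differed more between the knockdown libraries than between the controls.

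Among the phosphatases Pdp1 showed the widest gaps between replicates, at 10.6, 5.24, 9.46 and 5.77 units from 76, 36, 78 and 48 reads. Its controls differed by 0.90 and its knockdown libraries by 0.63 on the log2 scale, against a log2 fold change of -0.02. Pdp2 stood at 12.3, 11.1, 9.94 and 9.87 units, with both knockdown libraries below both controls, at a log2 fold change of -0.22 ± 0.22 SE that was not called (limma adjusted p = 0.815).

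Pyruvate carboxylase, encoded by Pcx, makes oxaloacetate from pyruvate and is abundant in beta cells. It stood at 131.9, 133.6, 125.7 and 141.1 units from 942, 918, 1037 and 1173 reads. Control libraries averaged 132.7 ± 1.25 units and knockdown libraries 133.4 ± 10.9 units (SD, n = 2 per group). The log2 fold change of 0.01 ± 0.12 SE had a 95% interval of -0.24 to 0.25, so a change by 1 on the log2 scale in either direction lies outside it (limma adjusted p = 0.995). Pcx holds the whole of Lrfn4 on the other strand, whose row stood at 0.214 times the level of Pcx, so reads of the pair may not have been told apart.

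The mitochondrial pyruvate carrier is formed by the products of Mpc1 and Mpc2. Mpc1 stood at 5.04, 4.95, 4.61 and 5.77 units, from 34 to 48 reads, and overlaps 4930506C21Rik, whose row held 0.308 of its level. Mpc2 stood at 19.5, 13.0, 16.6 and 16.4 units, the lowest and the highest library both being controls. Neither gene was called, with log2 fold changes of 0.04 ± 0.29 and 0.05 ± 0.21 SE.

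Malic enzymes turn malate back into pyruvate, in the cytosol with NADP (Me1) and in mitochondria (Me2 and Me3). Me1 stood at 24.5, 27.9, 27.6 and 33.4 units, with a log2 fold change of 0.21 ± 0.17 SE (limma adjusted p = 0.742). Me2 stood at 15.3, 14.3, 13.1 and 14.8 units and had the lowest log2 fold change of the pyruvate entry genes, -0.08 ± 0.20 SE. Me3 had the highest of all 34 genes, 0.50 ± 0.36 SE, at 2.94, 1.75, 4.37 and 3.008 units from 21, 12, 36 and 25 reads. Both knockdown libraries were above both controls, and it was not called (limma adjusted p = 0.693). Its exact Poisson 95% intervals were 1.82 to 4.49 and 0.903 to 3.05 units in the controls, and 3.06 to 6.04 and 1.95 to 4.44 units in knockdown 3 and 4. Control 1 and knockdown 4 were thus within counting error of each other, while control 2 and knockdown 3 were not. At this level log2(value + 1) understates a fold, and the ratio of the group means was 1.57.

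Glud1, Got1 and Got2 link the cycle to glutamate and aspartate. Glutamate dehydrogenase, encoded by Glud1, stood at 90.4, 85.4, 101.6 and 85.7 units, high in knockdown 3 alone. Aspartate aminotransferase is cytosolic from Got1 and mitochondrial from Got2, and both serve the malate-aspartate shuttle. Got1 stood at 24.1, 18.3, 19.6 and 22.1 units and Got2 at 35.1, 34.9, 42.0 and 33.7. Groups overlapped in all 3 genes, and the log2 fold changes were 0.09 ± 0.13, -0.01 ± 0.19 and 0.10 ± 0.16 SE. Got2 and Glud1 had their highest value in knockdown 3, the library in which Fh1, Mdh1, Idh2 and Pdk2 had their lowest.

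The genes differed among themselves mainly in level, compared here as units per kb of gene span with introns included. Mdh1 and Mdh2 were highest on that scale, at 7.30 and 6.63 units per kb, followed by Idh3b at 5.47 and Pdhb at 4.72. Suclg2, whose gene spans 245837 bases, stood at 0.112 and Me3 at 0.0136 units per kb. Long introns lower this measure, so it does not order the mature mRNAs. The X-linked members Pdha1, Idh3g and Pdk3 had log2 fold changes of -0.05, -0.20 and 0.22.

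**Figure D3:**
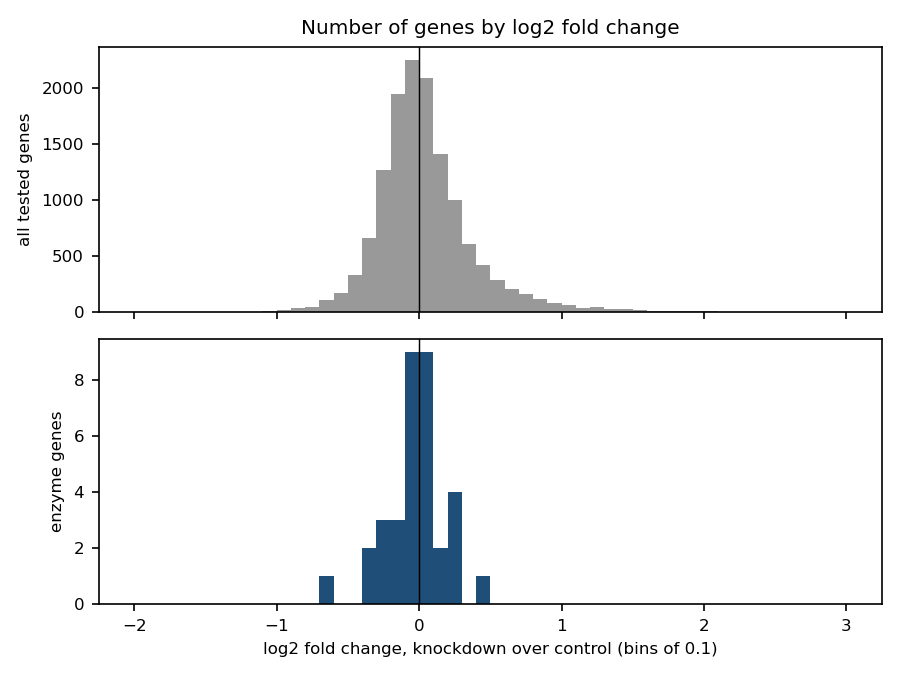
Bars count genes by log2 fold change of knockdown over control in bins of 0.1, for all 13531 tested genes above and for the 34 enzyme genes below. The 34 enzyme genes lie between -0.67 and 0.50, while the upper panel has a longer tail to the right, with a 95th percentile of 0.68.

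The distribution of log2 fold changes over all genes had its longer tail at higher values, and no enzyme gene exceeded 0.50. As a whole it did not lean higher, with 6661 positive and 6870 negative genes and a median of -0.0046. The middle 50% of all tested genes lay between -0.16 and 0.18 on the log2 scale, and that of the enzyme genes between -0.10 and 0.09. The 95th percentile was 0.68 for all genes and 0.21 for the enzyme genes. These are descriptions, and the enzyme genes rest on more reads, with a median value of 29.8 units per gene against 14.9 over all tested genes.

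The other genes of the pathway gave the same count. Of 32 such genes, 30 were tested, and limma called 0 higher and 0 lower, with 0 and 1 at an unadjusted p under 0.05 and a median log2 fold change of -0.09. The edgeR test and DESeq2 also called 0. The gene with that p was Pck2, the mitochondrial phosphoenolpyruvate carboxykinase, at 94.5, 90.5, 74.9 and 74.2 units, with a log2 fold change of -0.31 ± 0.12 SE (limma adjusted p = 0.348). Next came Sdhb, the iron-sulfur subunit of succinate dehydrogenase, at 35.7, 34.9, 29.1 and 27.9 units (-0.30 ± 0.16 SE, limma adjusted p = 0.534). In Pck2 and Sdhb the knockdown libraries lay below the controls with no overlap. They did so in 10 of the 30 genes, against 20% of all tested genes. They lay above in 4 of the 30, against 20.4% of all tested genes. Both directions together made 46.7% of these genes against the 40.4% of all tested genes, and these counts were not tested.

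Among these neighbours Sdha, the flavoprotein of succinate dehydrogenase, stood at 122.5, 122.3, 92.9 and 116.0 units. As in Fh1 and Mdh1, knockdown 3 was the lowest library. Ldha, the lactate dehydrogenase subunit gene that beta cells keep low, stood at 18.8, 34.4, 49.5 and 24.3 units, highest in knockdown 3 with overlapping groups. Without knockdown 4 it was called higher (log2 fold change 0.94, limma adjusted p = 7.24e-04), and with all libraries it was not (0.44 ± 0.25 SE, limma adjusted p = 0.590). Pck1, the cytosolic carboxykinase, had 0 reads in all 4 libraries, which allows up to 3 reads in each, and Adhfe1 was below the filter. Sdha and Ldha were picked after their values were seen.

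**Figure D4:**
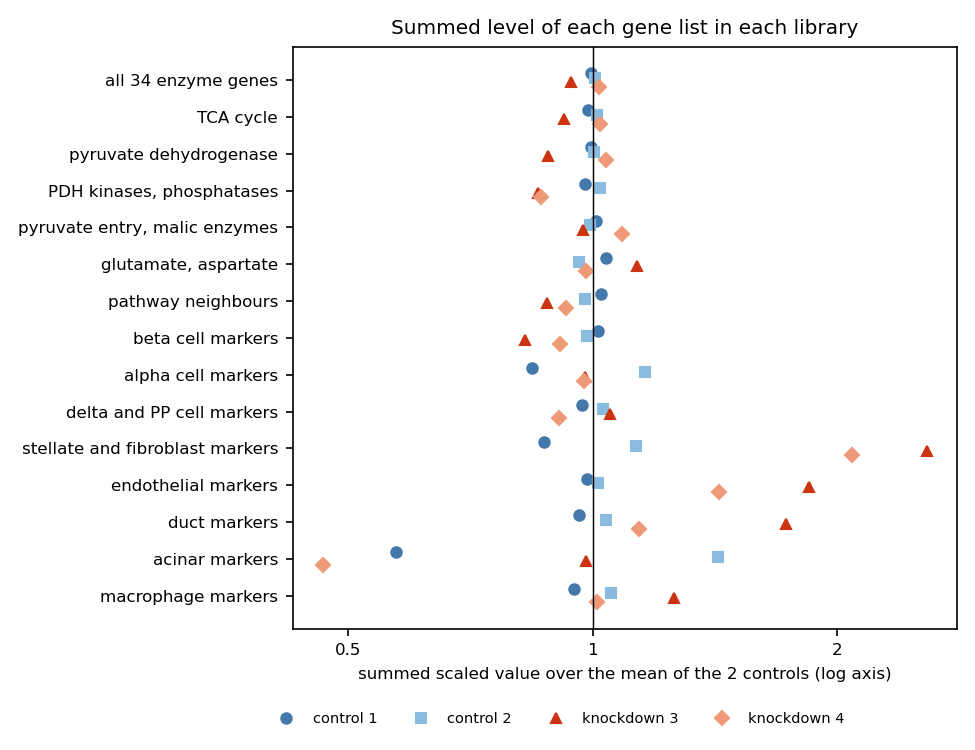
Each row is a gene list, and each point the summed scaled value of its tested genes in a library over the mean of the 2 controls, on a log axis, with circles and squares for the controls. All 34 enzyme genes together lie between 0.941 and 1.02 in the knockdown libraries, where stellate and fibroblast markers lie at 2.58 and 2.08.

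Knockdown 3 and knockdown 4 differed from each other in the summed lists. Relative to the mean of the controls, the 34 enzyme genes stood at 0.941 and 1.02, the cycle genes at 0.921 and 1.02, and the pyruvate dehydrogenase genes at 0.880 and 1.04. The beta cell markers stood at 0.825 and 0.912, stellate and fibroblast markers at 2.58 and 2.08, endothelial markers at 1.84 and 1.43 and duct markers at 1.73 and 1.14. The glutamate and aspartate genes went the other way, at 1.13 in knockdown 3 and 0.981 in knockdown 4. Knockdown 3 was the lower library for the summed enzyme genes and beta cell markers and the higher one for the summed connective-tissue, vessel and duct markers. Summed levels follow their most abundant genes. In control 1, Ins2, Ins1 and Iapp held 56310, 27962 and 9408 of the 95745 beta cell units. Sparc held 51.5 of the 97.7 stellate and fibroblast units there. The duct sum of 601.1, 648.2, 1079 and 711.2 units rested largely on Spp1, at 242.4, 295.8, 669.6 and 352.5 units. Krt7 stood at 236.7, 197.4, 208.1 and 221.4 units and was the 1 duct marker higher in knockdown 4 than in knockdown 3. Groups overlapped in 4 of the 6 tested duct markers. Of the 10 beta cell markers, 10 were higher in knockdown 4 than in knockdown 3, and of the 34 enzyme genes 21 were (61.8%), against 48.5% of all tested genes. The 34 enzyme genes took 0.227%, 0.234%, 0.234% and 0.249% of the reads counted in rows outside the 13 abundant ones. This share needs no scaling between libraries. By it both knockdown libraries lay above both controls, knockdown 3 by little (0.2343% against 0.2339% in control 2). In the scaled sum knockdown 3 was the lowest library instead, so the order of the libraries depends on the measure. Neither order was tested.

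In the remaining marker lists few genes were called. Alpha cell markers summed to 5564, 7671, 6467 and 6451 units, of which Gcg held 5223.5 in control 1. Delta and PP cell markers summed to 2001, 2124, 2163 and 1875 units. In these 2 lists 0 genes were called (limma), with 1 and 2 genes at an unadjusted p under 0.05. Acinar markers summed to 2308, 5767, 3962 and 1877 units, with overlapping groups and 0 of 7 called (1 at an unadjusted p under 0.05). Of 6 tested duct markers 1, Spp1, was called higher (3 at an unadjusted p under 0.05). Of 6 tested macrophage markers 1 was called higher, Lyz2, at 1.54, 0.437, 6.31 and 5.29 units (2 at an unadjusted p under 0.05).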

How the data were processed

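Total RNA was sequenced in 2 control and 2 knockdown islet libraries after ribosomal RNA removal and directional, random-primed library building, per the labels' protocols. Per the submitters' processing notes, the tools were STAR 2.5.1b, HOMER 4.9 and edgeR, on build mm10. Which tool did what is not given in the sources used here. How reads matching several places were counted is not given in the sources used here. The deposited table is named FPKM, but each deposited value is a signal scaled to 10000000 reads per library, without division by length. In each library 100% of values were whole reads within 0.01, and library totals were 68823160, 81073502, 76680282 and 78630832. The length column equals the gene span for 99.5% of genes.

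Recovered reads were scaled by median-ratio factors, since the share of reads counted in rows outside the abundant ones differed between controls. Genes with a mean deposited value of at least 1 and a length of at least 200 were tested two-sided with limma 3.58.1 (R 4.3.3). The input was log2(value + 1), the mean-variance trend was used, and the prior degrees of freedom were 21.4. edgeR 4.0.16, DESeq2 1.42.0, other scalings and filters, and leaving out each library were alternatives. The fit was tested on simulated data. Replicates are separate pools of mice and share no number across groups. All 34 enzyme genes, by rule, are accounted for. Neighbours are named by call or by largest statistic, except Sdha and Ldha, picked after their values were seen, and the untested Pck1 and Adhfe1. The members and lists were chosen with earlier results of these data known. Coordinates are as deposited, on mm10. Genes below the filter were not tested.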

Additional observations from a re-analysis of the deposited data

How the results depend on the processing

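The count of 0 enzyme genes called higher held under every alternative tried, and that of 0 called lower under all but 1. Without knockdown replicate 4 it was 2 (Fh1 and Pdk2). Leaving out single libraries gave 0 to 2 enzyme genes lower, 0 to 1 pathway neighbours higher (Ldha), and a median log2 fold change of the enzyme genes of -0.0899 to 0.0270. The lone library left in a group was assumed to vary like the others. Of 407 single-gene values under the alternatives, 2 passed the threshold, again Fh1 and Pdk2 without knockdown replicate 4. In 20 of the 34 genes the sign changed under at least 1 alternative, none of them a called value. The values printed for these genes, such as Ogdh, Idh3b, Pdk3, Pdk4 and Pdp1, show no direction.

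Counts over all genes moved more. Leaving out single libraries gave 0 to 339 genes higher and 0 to 68 lower, both 0 without control replicate 1 (821 at an unadjusted p under 0.05). The deposited scaling gave 337 and 6, quantile normalization 86 and 7, DESeq2 83 and 11. With no filter, and with no variance trend, limma called 0 and 0, while 1394 and 1213 genes had an unadjusted p below 0.05. A mean of at least 5 units gave 98 higher. The cause was not tested. Since some of these settings call no gene at all, their 0 for the enzymes says nothing about stability. No paired analysis was possible because the groups share no replicate number. Few reads per gene limit Me3, Mpc1, Pdp1 and Pdhx most.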
